A study of Mus musculus with 6 samples.

Results

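The genes described here are 10 members of the Wnt signalling pathway, measured by microarray in lungs taken from mice at E18.5, shortly before birth. They are the ligands Wnt2, Wnt2b, Wnt5a, Wnt7b and Wnt11, the receptors Fzd1 and Fzd2, the secreted inhibitor Sfrp1, the response gene Axin2 and the nuclear factor Lef1. They were chosen by symbol, through the accession that the array files give for each probe, and are 10 of the 18217 genes on the array that received a symbol. All 10 were found, with 12 probes: Fzd2 and Sfrp1 had 2 probes and the others had 1. The study compared 3 knockout lungs (KO, genotype 15-1Flox/Flox and 15-2-/-) with 3 wild type lungs (WT, genotype 15-1+/+ and 15-2+/+), each on an array of its own. In these names 15-2 stands for ECAT15-2, or Dppa2, and 15-1 for its relative ECAT15-1, or Dppa4. The null allele of one therefore came with 2 floxed copies of the other in every KO embryo. Per the labels, the embryos came from parents heterozygous at both genes, on a mixed background of 129Sv and C57/BL6 with a Cre or FLPe line of unknown background.

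Wnt proteins are lipid-modified ligands that cells secrete over short distances. A Wnt bound to a Frizzled receptor and an Lrp coreceptor stops the destruction of beta-catenin, which then enters the nucleus and, with factors of the Tcf and Lef family, switches on genes such as Axin2. In mouse lung, Wnt2 and Wnt2b from the mesenchyme are known for setting up lung progenitors in the foregut, and Wnt7b from the epithelium for the growth of the mesenchyme and its smooth muscle. Wnt5a and Wnt11 are known mainly for signals that do not go through beta-catenin.

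Levels are given as the background-subtracted intensity divided by the 75th percentile of intensities on the same array, so that a level of 1 is that percentile. A probe's level is compared between arrays and never with another probe. Only the summed levels of cell type markers add different probes, and there the brightest probes weigh most. Differences are KO minus WT on the log2 scale. Of the 10 genes, 9 were tested, all with a probe well above background on all 6 arrays. Wnt2b was at background everywhere. None of the 9 passed the threshold of an adjusted p under 0.05 (limma, adjusted over 19864 features), where 1.34% of all features passed. At an unadjusted p under 0.05 there were 2 of 9, Wnt5a and Wnt11, against 25.7% of all features. These were also the 2 genes whose groups did not overlap, which held for 31.3% of all features. Differences were above 0 in 7 of 9 genes, against 51.1% of all features, with a median of 0.13, against 0.01 over all features. This count depended on the setting: 4 of 9 were above 0 with each array scaled on its median (median -0.001, against -0.124 over all features) and 4 of 9 with the slide as a fixed term (median -0.013).

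The arrays differed in ways that run alongside the groups. KO 3, WT 1 and WT 2 were on one slide, WT 3 on another, and KO 1 and KO 2 on a further one. The number in the raw file name grouped them otherwise. It was shared by WT 1 and WT 2, by KO 1 and KO 2, and by KO 3 and WT 3, and what it stands for is not known here. Signal of the Y-linked Uty, Kdm5d, Ddx3y and Eif2s3y was above background on WT 1 and WT 2 alone, and that of Xist on the other 4 arrays, so sex ran partly with genotype. Dppa2 had a log2 level of -4.94, -4.98 and -4.08 in KO 1, 2 and 3, against -3.25, -3.52 and -3.57 in WT 1, 2 and 3. The difference of Dppa2, -1.22, did not pass (limma adjusted p = 0.0604). Its probe was above background on all 6 arrays, and whether it lies in the deleted part is not known here. All 10 epithelial and all 10 mesenchymal lung markers were above background on all 6 arrays. The summed level of 8 heart muscle markers was 8.78 to 11.1 in KO and 24.1 to 25.9 in WT lungs, and 6 of them were lower in KO by the test. The summed level of 5 tested leukocyte markers was 9.04 to 11.03 in KO and 13.5 to 18.4 in WT lungs, with 1 lower in KO. All 5 mesothelial markers had a difference below 0 (median -0.66), with Upk1b lower in KO by the test (-1.47). Of 6 tested erythroid markers, the embryonic globin gene Hba-x was higher in KO (2.42) and the other 5 did not pass. Of the 10 epithelial markers, 0 passed, and 4 had a difference above 0 and 6 below (median -0.09). The lowest was the club cell gene Scgb1a1 at -1.73 (limma adjusted p = 0.0734). The summed level of 6 proliferation markers was 23.0 to 29.6 in KO lungs, and 11.26, 10.73 and 23.86 in WT 1, 2 and 3, and 0 of the 6 passed. Their part in the values below was not tested. In whole lung RNA, fewer cells of a type and less RNA per cell cannot be told apart.

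**Figure D1:**
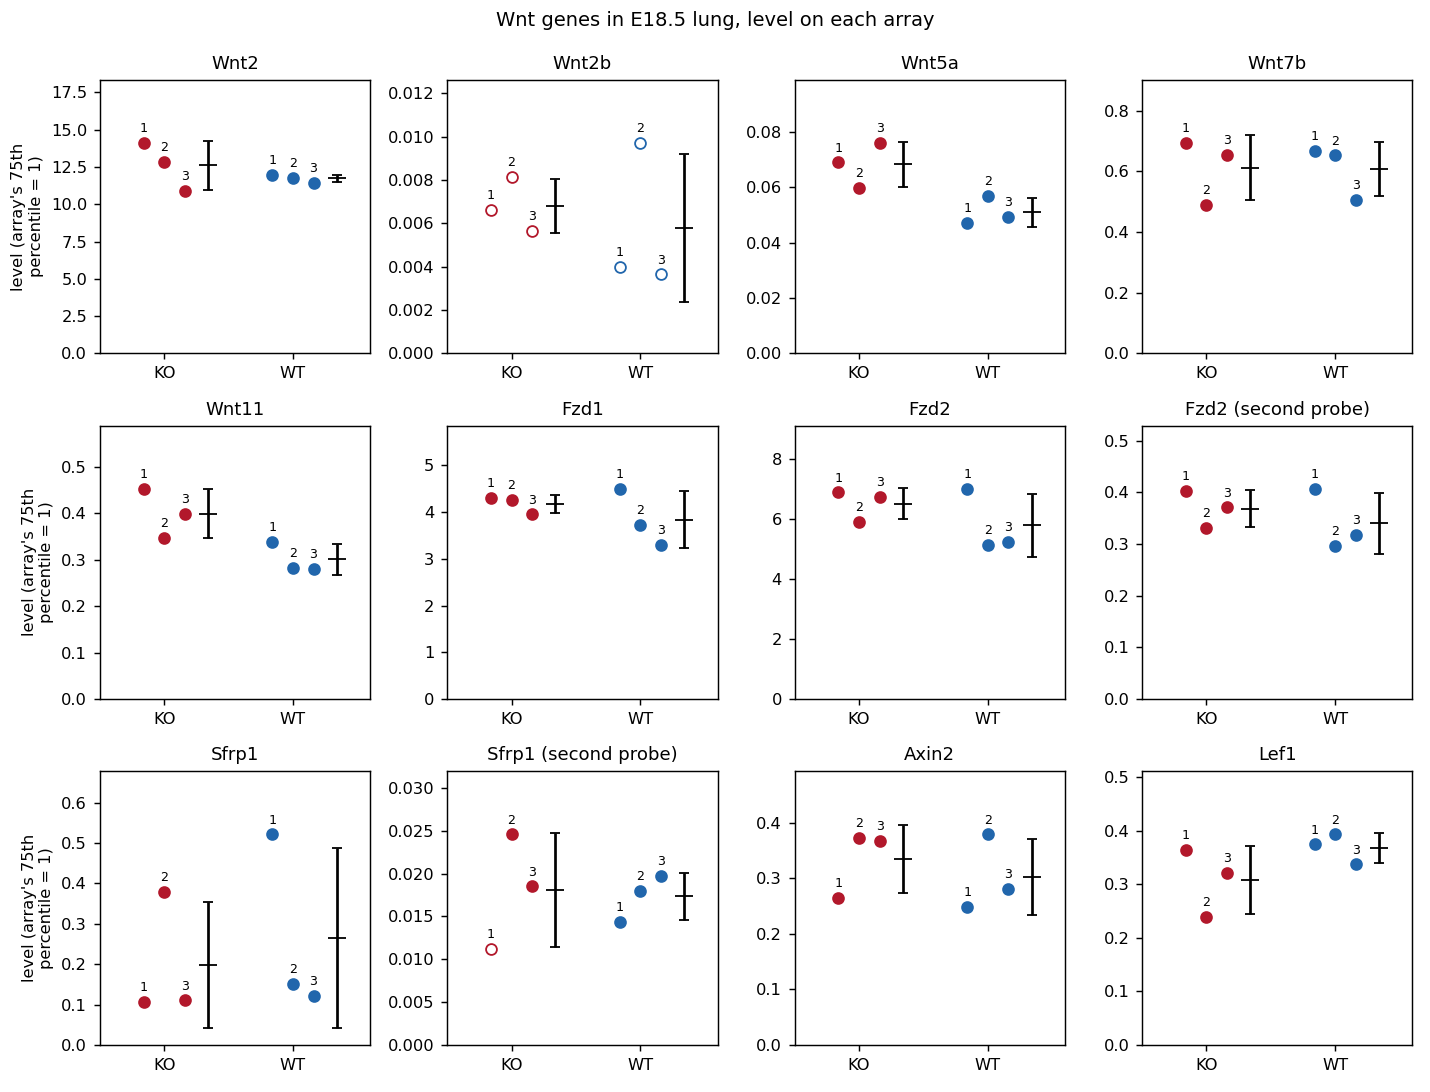
Level of each probe on each array, relative to the 75th percentile of intensities on that array (linear axis from 0, 1 panel per probe), for KO lungs on the left and WT lungs on the right. Numbers are replicates, open points were not well above background, and the bar beside each group is the mean and SD of 3 lungs. The 2 groups are apart in the panels of Wnt5a and Wnt11, and at the first probe of Sfrp1, not at its second, 1 lung of either group lies far above the other 2.

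Wnt2, the mesenchymal ligand of early lung, had a level of 14.1, 12.8 and 10.9 in KO 1, 2 and 3, and of 12.0, 11.8 and 11.4 in WT 1, 2 and 3. The WT lungs were close together, with a coefficient of variation (CV) of 2.24%, and the KO lungs spread around them, with a CV of 12.9%. The difference was 0.10 (95% confidence interval -0.20 to 0.39; limma adjusted p = 0.662), which allows a level in KO of 0.87 to 1.31 times that in WT. KO 1 and KO 2, from one slide, lay above all WT lungs, and KO 3 lay below them, so that KO 3 differed by -0.13 from the mean of WT 1 and WT 2 on its own slide. With each array scaled on its median the difference was -0.04, and it was 0.01 without KO 1 and 0.198 without KO 3.

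Wnt2b, which shares the role of Wnt2 in the lung field, was not well above background on any array. Its raw intensity was 9.51 to 13.2 in KO and 5.89 to 14.8 in WT lungs, and no fold is given.

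Wnt5a was the member with the smallest p. This ligand is known from the tips of the growing airways and acts through Ror and Frizzled receptors. Its level was 0.0690, 0.0598 and 0.0761 in KO 1, 2 and 3, and 0.0470, 0.0569 and 0.0492 in WT 1, 2 and 3. All KO lungs were above all WT lungs, with KO 2 and WT 2 close to each other. The difference was 0.42 (SE 0.14, 1.34-fold, n = 3 each; limma unadjusted p = 0.0174, adjusted p = 0.121). The scale of the arrays moved it by over 1.5 times, to 0.26 with quantile normalization (adjusted p = 0.284). KO 3 was above the mean of WT 1 and WT 2 on its slide by 0.56 and above WT 3 by 0.63.

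Wnt11, known for branching and cell movement in other organs such as the kidney, had a level of 0.454, 0.348 and 0.399 in KO 1, 2 and 3, and of 0.339, 0.283 and 0.281 in WT 1, 2 and 3. The groups did not overlap, and KO 2 and WT 1 were nearest to each other. The difference was 0.41 (SE 0.14, 1.33-fold, n = 3 each; limma unadjusted p = 0.0238, adjusted p = 0.139). It was 0.36 within the slide that held both groups, and 0.50 with a term for sex. As WT 1 and WT 2 alone had Y-linked signal, that term sets the KO lungs against WT 3 alone.

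A promoter window of Wnt11 is shown because it was the only one of the members' windows with the longer form of the letters that Tcf and Lef factors are known to bind. RefSeq promoter windows (GRCm38.p6, 250 bases before to 50 after an annotated start) were found for 6 of the 10 genes, with 10 windows, and were searched on both strands for CTTTGA and for CTTTGAT, which contains it. The shorter letters were in 3 of the 10 windows (1 of Wnt11, that of Fzd1 and 1 of Lef1), against 16% of all 32851 windows. The longer ones were in 1 of 10, against 3.73%. The other window of Wnt11, at chr7:98838595-98838844 on the plus strand, held no match. The match of Wnt11, capitals below, begins 50 bases before the start at chr7:98834862-98835111 on the plus strand, and reads CTTTGAT on the opposite strand together with the base before it.
Wnt11: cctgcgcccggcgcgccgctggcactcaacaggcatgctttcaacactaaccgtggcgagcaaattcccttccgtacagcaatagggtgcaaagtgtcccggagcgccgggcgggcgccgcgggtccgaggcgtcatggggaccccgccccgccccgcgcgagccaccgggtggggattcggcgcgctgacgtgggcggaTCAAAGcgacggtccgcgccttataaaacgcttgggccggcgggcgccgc

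Wnt7b, the epithelial ligand, had a level of 0.694, 0.490 and 0.654 in KO 1, 2 and 3, and of 0.668, 0.652 and 0.505 in WT 1, 2 and 3. Each group held 2 lungs near the same level and 1 lower lung, KO 2 and WT 3. The difference was 0.01 (-0.42 to 0.43; limma adjusted p = 0.988), which allows 0.75 to 1.34 times the WT level. Its sign changed with the setting.

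The receptors Fzd1 and Fzd2 overlapped between the groups. Fzd1, a receptor that can carry the Wnt7b signal in lung mesenchyme, had a level of 4.31, 4.27 and 3.95 in KO 1, 2 and 3, and of 4.504, 3.73 and 3.30 in WT 1, 2 and 3. WT 1 was the highest of the 6 lungs and WT 3 the lowest, and the KO lungs lay within that range. The difference was 0.13 (-0.20 to 0.46; limma adjusted p = 0.583). It was 0.252 without WT 1 and 0.03 without WT 3, and -0.001 with median scaling.

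Fzd2, a receptor known for branching of the lung epithelium, had a level of 6.88, 5.91 and 6.73 in KO 1, 2 and 3, and of 7.01, 5.13 and 5.23 in WT 1, 2 and 3. WT 1 was again the highest lung. The difference was 0.18 (-0.18 to 0.54; limma adjusted p = 0.492), and 0.12 at its second probe, whose values followed the first across the arrays (Pearson r = 0.971 over 6 arrays, a description). At the first probe it was 0.325 without WT 1, 0.10 without WT 2 and 0.114 without WT 3, and 0.05 with median scaling.

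Sfrp1, a secreted protein that binds Wnt ligands and keeps them from Frizzled, varied more within the groups than any other member. Its level was 0.107, 0.378 and 0.110 in KO 1, 2 and 3, and 0.521, 0.151 and 0.122 in WT 1, 2 and 3. WT 1 and KO 2 stood far above the other lungs, and these 2 lungs share neither group, slide nor sex. The ratio of the highest to the lowest lung was 3.52 among KO and 4.26 among WT lungs, where it was at most 1.53 in either group for any of the other 8 tested genes. The SD within groups, 1.08 on the log2 scale, was as large as or larger than that of 99.5% of all features. The scanner software put the error of the WT 1 and KO 2 intensities at 10%. It gave the same error to every Wnt2 and Wnt7b spot, so this value does not set the 2 intensities apart. Why they were high was not tested.

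The difference of Sfrp1 was -0.37 (-1.95 to 1.22; limma adjusted p = 0.761), so a change of 2-fold in either direction lies within the interval. Without WT 1 it was 0.28, and without KO 2 it was -0.97. The second probe of Sfrp1 did not show WT 1 as high. Its level was 0.0112, 0.0246 and 0.0185 in KO 1, 2 and 3, and 0.0143, 0.0180 and 0.0198 in WT 1, 2 and 3, with KO 1 not well above background. KO 2 was the highest lung there too, WT 1 was the lowest WT lung, and the 2 probes had a Pearson r of 0.207 over 6 arrays.

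**Figure D2:**
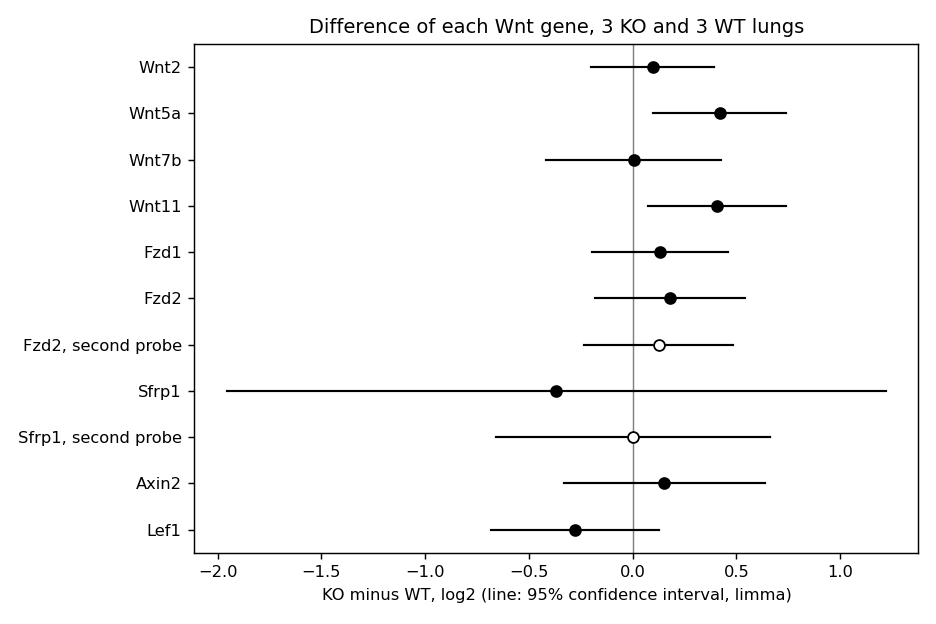
Difference of each tested gene between 3 KO and 3 WT lungs (KO minus WT, log2), with the 95% confidence interval of limma as a line. Filled points are the probe used for the gene and open points its other probe. The intervals of Wnt5a and Wnt11 lie above 0 before adjustment over all features, and that of Sfrp1 runs from -1.95 to 1.22.

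Axin2, a scaffold of the complex that destroys beta-catenin and a widely used readout of beta-catenin signalling, had a level of 0.265, 0.372 and 0.367 in KO 1, 2 and 3, and of 0.248, 0.379 and 0.281 in WT 1, 2 and 3. The groups covered nearly the same range, and WT 2 was the highest lung. The difference was 0.15 (-0.33 to 0.64; limma adjusted p = 0.672), which allows 0.79 to 1.55 times the WT level. It was 0.02 without WT 1, 0.07 without KO 2, 0.08 without KO 3, 0.31 without KO 1 and 0.33 without WT 2, and 0.02 with median scaling.

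Lef1, a nuclear partner of beta-catenin, had a level of 0.364, 0.238 and 0.321 in KO 1, 2 and 3, and of 0.374, 0.393 and 0.337 in WT 1, 2 and 3. KO 2 and KO 3 lay below all WT lungs and KO 1 lay among them. The difference was -0.28 (-0.68 to 0.13; limma adjusted p = 0.348). It was -0.10 without KO 2. KO 3 differed by -0.07 from WT 3 and by -0.26 from the mean of WT 1 and WT 2.

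The windows of both genes are shown to set the response gene beside a factor that can act on it. The window of Axin2, at chr11:108920099-108920348 on the plus strand, held no match to either motif. Of the 4 windows of Lef1, that at chr3:131156044-131156293 on the plus strand held the shorter letters at 180 and 120 bases before the start, in capitals, both on the opposite strand and neither in the longer form. No match says only that these letters are not in this window, and a match is not a bound site.
Axin2: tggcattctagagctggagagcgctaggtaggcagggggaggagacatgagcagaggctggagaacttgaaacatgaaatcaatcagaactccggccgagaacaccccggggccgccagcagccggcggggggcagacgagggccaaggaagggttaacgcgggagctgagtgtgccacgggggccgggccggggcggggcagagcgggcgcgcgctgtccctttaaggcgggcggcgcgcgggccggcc
Lef1: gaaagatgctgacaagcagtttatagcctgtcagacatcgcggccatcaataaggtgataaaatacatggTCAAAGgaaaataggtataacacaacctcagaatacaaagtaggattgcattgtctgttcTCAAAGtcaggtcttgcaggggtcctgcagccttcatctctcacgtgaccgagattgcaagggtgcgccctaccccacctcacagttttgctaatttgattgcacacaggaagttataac

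Across the 6 arrays the members did not form 1 pattern. Among the 36 pairs of tested members, the highest correlations of log2 level were between Wnt11 and Fzd2 (Pearson r = 0.836), Fzd1 and Fzd2 (0.797), Wnt7b and Lef1 (0.738) and Wnt5a and Wnt11 (0.728), and the lowest was between Wnt5a and Sfrp1 (-0.558). Axin2 had an r of -0.324 with Wnt2 and of -0.434 with Lef1. These values are descriptions over 6 arrays that share slides and groups. The features most like Wnt2 over the arrays were Actb (r = 0.989), Urb1 (0.989) and Brpf1 (0.983), and those most like Axin2 were Plaat5 (0.969), Pou2f1 (0.9575) and Atp5a1 (0.954). Those most like Sfrp1, a gene added to this search after its values were seen, were Tmem42 (0.992), Tmem109 (0.979) and Lgals8 (0.974). Each is the highest among 19864 features over only 6 arrays, so such values do not set a gene apart. With the other tested members searched too, the top r ran from 0.969 (Axin2) to 0.9987 (Lef1).

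The rest of the pathway was described with 94 further genes in 7 lists by role. Of these, 90 were on the array and 75 were tested. At an adjusted p under 0.05 (limma), 0 were higher and 0 lower in KO lungs, where 1.34% of all features passed. At an unadjusted p under 0.05 there were 9 of the 75, against 25.7% of all features. The groups did not overlap in 15 of the 75, against 31.3% of all features. The median difference was -0.01, and 37 were above 0 and 38 below, where 51.1% of all features were above 0. A difference of at least 1.5-fold was found in 2 of the 75, against 13.3% of all features. The other 15 genes on the array were at background, among them the ligands Wnt1, Wnt8a, Wnt8b, Wnt9b, Wnt10a, Wnt10b and Wnt16, and the inhibitors Dkk1, Dkk4, Frzb and Sfrp5.

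Among the other ligands (7 tested, 0 passed), Wnt6 had a log2 level of -4.17 ± 0.24 in KO and -4.86 ± 0.03 in WT lungs (SD, n = 3 each), a difference of 0.69 that did not pass (limma adjusted p = 0.0603). It passed without KO 3, at 0.81 (adjusted p = 0.0438). Wnt9a differed by -0.47. Among the secreted and membrane modulators (14 tested, 0 passed), Sfrp4, a relative of Sfrp1, differed by 0.77 (1.70-fold, limma adjusted p = 0.0892). Kremen2, a receptor for the Dkk inhibitors, differed by -0.50 (adjusted p = 0.0634). Both had groups that did not overlap. The mean log2 level was -5.06 in KO and -5.83 in WT lungs for Sfrp4, and -5.28 in KO and -4.78 in WT lungs for Kremen2. These signals and that of Wnt6 were dim, though well above background on all 6 arrays.

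Among the other receptors (13 tested, 0 passed), 11 differences were above 0, against 51.1% of all features. The median of this list was 0.17, against 0.01 over all features. The count was not repeated with each array scaled on its median. That setting moved the median over all features to -0.124 and the members above 0 from 7 to 4 of 9. Fzd6 differed by 0.39 and Lgr4, a receptor for R-spondins, by 0.32. The other Lgr4 probes differed by 0.22 and 1.297. In the relay from ligand secretion to beta-catenin (13 tested, 0 passed), Apc, part of the destruction complex, differed by 0.26 and Dvl1, which links Frizzled to that complex, by -0.22. The other probes of Apc differed by -0.16 to 0.34 and that of Dvl1 by 0.16, so the probes of either gene did not share a sign. Among the nuclear partners (10 tested, 0 passed), the beta-catenin coactivator Pygo2 differed by -0.24 and the corepressor Tle2 by 0.24.

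Among the other response genes (11 tested, 0 passed), Tnfrsf19 differed by 0.41 (limma adjusted p = 0.112) and Nkd1, a feedback inhibitor, by -0.28 (adjusted p = 0.214), each with groups that did not overlap. The other Nkd1 probe differed by -0.03. Of the 7 lung genes that lie downstream of Wnt2 or Wnt7b in mouse, 0 passed. Myocd, a coactivator of smooth muscle genes, differed by 0.42 (adjusted p = 0.0802), with 0.28 at its other probe, and Fgf10, the growth factor of the lung mesenchyme, by -0.35 (adjusted p = 0.216). The smooth muscle protein gene Tagln differed by -0.56 and had the lowest value of that list, with -0.68 at its other probe. Pdgfra, a growth factor receptor of the mesenchyme, differed by 0.35 at the probe used and by 0.81 at its other probe, which did not pass either (limma adjusted p = 0.0814).

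**Figure D3:**
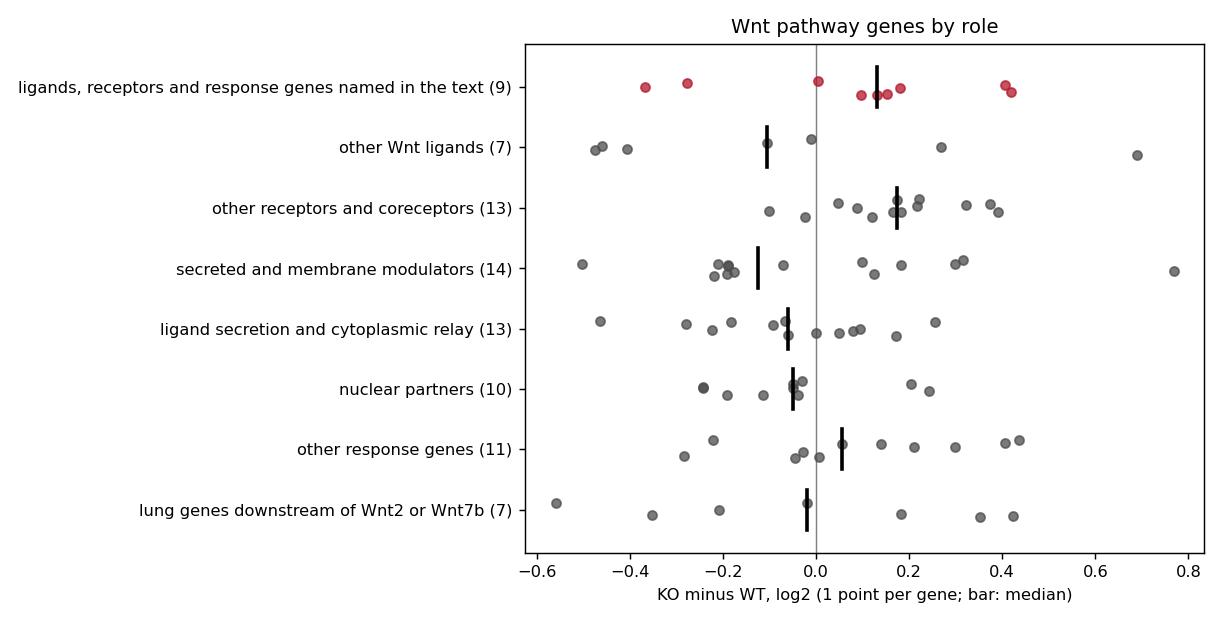
Difference between KO and WT lungs (KO minus WT, log2) of each tested Wnt pathway gene, 1 point per gene, by role, with the number of genes in brackets and the median as a bar. The medians of the lists lie between -0.12 and 0.17. The highest single values are Sfrp4 at 0.77 and Wnt6 at 0.69, both from dim probes.

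**Figure D4:**
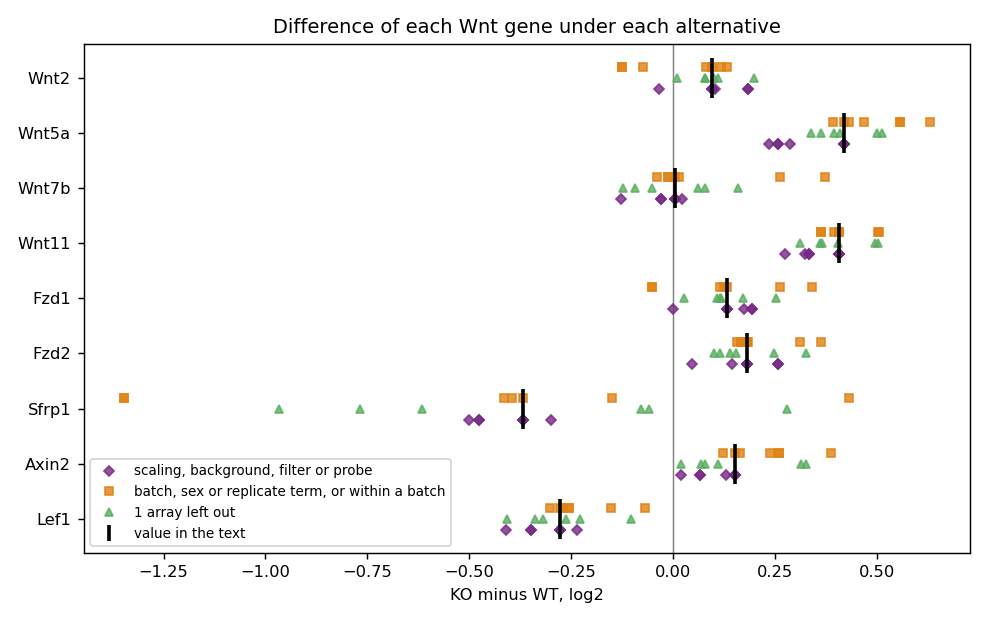
Difference of each tested Wnt gene (KO minus WT, log2) under each alternative of processing, batch term or left-out array, with the value of the text as a black bar. Wnt5a (0.23 to 0.63) and Wnt11 (0.27 to 0.51) stay above 0 in all 20 alternatives, and Sfrp1 runs from -1.35 to 0.43. As the groups of Wnt5a and Wnt11 did not overlap, leaving out 1 array or comparing within a batch could not turn their sign.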

How the data were processed

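Each lung's total RNA was labelled with Cy3 and hybridised to 1 Agilent Whole Mouse Genome array. The deposited scanner files hold an intensity per spot, background-subtracted and detrended within the array by Agilent Feature Extraction 10.7.3.1 and not scaled between arrays, per the file headers. A table of processed log2 values was deposited too, from GeneSpring GX 11 per the design text; it matched quantile-normalized log2 intensities relative to the WT median.

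Here, flagged spots were left out (77 to 110 per array; none was saturated), spots of a probe were averaged, and each array's 75th percentile (1521.6 to 1687.9) was taken as 0 of its log2 scale. Between 63.3% and 68.8% of 41174 probes per array lay well above background. Accessions gave 26690 probes (64.8%) a symbol through a RefSeq table (GRCm38.p6). A probe was kept if every array of either group had it well above background, and each gene was its probe with the highest mean over the 6 arrays. Second probes come from a fit of all probes. The KO minus WT difference was fitted in R 4.3.3 by limma 3.58.1 (lmFit and eBayes, two-sided, no covariate), with Benjamini-Hochberg adjustment, and the script was tested on simulated data. Each array is 1 embryo; 3 arrays per group limit the precision.

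The members and lists were chosen with earlier results of these data known. All members were named with every probe. Pathway genes were named if they passed, differed by at least 1.5-fold or had one of the 2 smallest p of their list; Tagln, Pdgfra, the single marker genes and genes at background were added after their values were seen. Likeness was fixed for Wnt2 and Axin2 as the 3 features with a symbol of highest r. The files hold no mean spot signal, so the planned normexp correction (offset 50) used the median signals, with the local background of flagged background spots set to the array's median. Same-numbered KO and WT lungs did not deviate together.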

Additional observations from a re-analysis of the deposited data

How the results depend on the processing

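No Wnt gene of the 9 passed in any of the 18 alternative fits, which had 0 to 2 of them at an unadjusted p under 0.05. The direction of Wnt5a, Wnt11, Fzd2, Axin2 and Lef1 was the same in all 20 alternatives, but the sizes moved: Fzd2 ran from 0.047 to 0.363, Axin2 from 0.02 to 0.388 and Lef1 from -0.409 to -0.069. Not all alternatives could change a direction. The filter settings, the fit of every probe and the replicate block returned the same difference. For Wnt5a and Wnt11, whose groups did not overlap, leaving out 1 array or comparing within a batch could not turn the sign. Nor could the term for sex, which sets the KO lungs against WT 3 alone. Wnt2 was at -0.036 with median scaling, -0.126 with the slide as a fixed term and within slide 1, and -0.073 between KO 3 and WT 3. Wnt7b was at -0.03 with quantile normalization, -0.127 with median scaling, -0.031 with the authors' deposited values, -0.013 with the slide as a fixed term and within slide 1, -0.041 with the number in the raw file name as a random block, and -0.124 to 0.159 with 1 array left out. Fzd1 was at -0.001 with median scaling and at -0.052 with the slide as a fixed term and within slide 1. Sfrp1 was at 0.431 with a term for sex and at -0.967 to 0.279 with 1 array left out. The high WT 1 has no part in the value with the term for sex, so that value does not show an effect of sex. Otherwise the cause was not tested. Of the 94 other pathway genes, 75 were tested. Of these, 3 passed with the raw file number as a block (Wnt6, Kremen2 and Myocd) and 0 to 1 with 1 array left out. The correlation fitted within this block was negative (-0.201), and WT 1 and WT 2 shared a number, as did KO 1 and KO 2. The block can thereby lower the SE, as for Wnt5a from 0.136 to 0.124. With it 1699 of all features passed, against 267 without it, so the 3 passes are not added evidence.

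Of all features, 267 passed (144 higher, 123 lower), with 59 higher and 138 lower after quantile normalization and 88 and 230 with median scaling, which moved the median of all differences to -0.124. With no filter on dim probes 28 passed, with the slide as a fixed term 24, with the raw file number as a block 1699, with a term for sex 26, and with 1 array left out 34 (WT 1) to 1972 (WT 3). With the replicate block 55 passed, and no call on a Wnt gene changed. The correlation of the deviations of same-numbered lungs was -0.0206, 0.0416 and 0.0268, so the numbers were not taken as pairs. Levels near background, such as Wnt2b and the second Sfrp1 probe, limit what can be read, as do dim probes such as those of Sfrp4, Kremen2 and Wnt6.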
